A study of Mus musculus with 4 samples.

Results

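The Dlk1-Dio3 domain of mouse chromosome 12 was examined through 9 genes: Begain, Dlk1, Meg3, Rtl1, Rian, AF357425, AF357355, Mirg and Dio3. They were taken by gene symbol, out of 22180 genes that have a probe set of their own. The set was chosen on earlier results of the same arrays, in which AF357355 and Rian had passed a 2-fold difference, so the values below are a description and no test supports them. All 9 genes had at least 1 probe set, a group of probes summarised to 1 value, and 19 probe sets carried their symbols. Of these, 7 were annotated to 1 gene and 12 to several. Rtl1 and Mirg were found only on shared probe sets, which are named below by all their genes.

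The cells were mouse embryonic stem cells in which Prdm14, a PR domain zinc finger gene of naive pluripotent and germ cells, had been knocked out. They expressed the sea urchin proteins PRDM14 and CBFA2T together (CBFA2T belongs to a family of co-repressors), sea urchin PRDM14 alone, mouse PRDM14, or an empty vector. Where a value is given "with CBFA2T", sea urchin PRDM14 was expressed too. All groups shared the knockout, the 2i medium with LIF and a layer of STO cells, a mouse fibroblast line used as feeder. Each group had 1 array, all of strip 2, so no value has a replicate error and no p-value is given. No source used here states how many clones were taken or the mouse strain.

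The domain is imprinted. Dlk1, Rtl1 and Dio3 are expressed from the chromosome inherited from the father, and Meg3, Rian and Mirg, which are long noncoding RNA genes, from the one inherited from the mother. Rian is the host of a series of C/D box small nucleolar RNAs (snoRNAs), AF357425 and AF357355 among them, and Mirg of a large miRNA cluster. In embryonic stem cells and induced pluripotent cells the maternal noncoding RNAs are known to be silenced in some lines and expressed in others.

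The sequence at the start of Meg3 is shown because transcription of the maternal noncoding RNAs is thought to begin there, and that of Rian because Rian had the lower values described below. Both run from 250 bases before to 50 bases after the annotated start, on the plus strand, from RefSeq on GRCm38.p6. RefSeq gives Meg3 a further start downstream, whose window is not printed. The window of Meg3 shown is chr12:109540746-109541045 and that of Rian chr12:109603695-109603994. Capitals mark matches, on either strand, to TGACGTCA (the cAMP response element), GGTCTCTAA (a motif of PRDM14) or TGCCGC (the motif of ZFP57, an imprint maintenance factor).
Meg3: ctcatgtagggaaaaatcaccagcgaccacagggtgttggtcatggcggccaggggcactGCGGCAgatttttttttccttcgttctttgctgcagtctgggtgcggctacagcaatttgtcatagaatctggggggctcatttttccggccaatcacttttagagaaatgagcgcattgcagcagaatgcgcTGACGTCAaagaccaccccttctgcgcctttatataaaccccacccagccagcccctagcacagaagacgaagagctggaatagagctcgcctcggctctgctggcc
Rian: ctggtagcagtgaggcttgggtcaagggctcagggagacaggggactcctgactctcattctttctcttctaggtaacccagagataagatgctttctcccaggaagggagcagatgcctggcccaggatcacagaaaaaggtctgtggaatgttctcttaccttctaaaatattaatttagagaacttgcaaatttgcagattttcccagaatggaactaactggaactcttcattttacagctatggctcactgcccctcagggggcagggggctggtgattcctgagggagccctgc
The Meg3 window shown held 1 TGACGTCA, at position -57 from the start, and 1 TGCCGC on the minus strand, at position -190, which do not overlap. It had 13 CG dinucleotides and 53.7% G and C, against 0 CG and 49.3% in the Rian window. The window at the other Meg3 start held 0 matches to any of these motifs, and 1 CG. TGACGTCA was in 1.79% of 32851 windows of this length, TGCCGC in 11.6% and GGTCTCTAA in 0.256%. The table had 11 windows of members: 5 of Begain, 2 of Meg3 and 1 each of Dlk1, Rian, Mirg and Dio3. Of these, 1 held TGACGTCA, 1 held TGCCGC and 0 held GGTCTCTAA. A match is only a match of letters.

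The shared probe sets of Meg3 and Mirg with lower values on some arrays are annotated to miRNAs as well, so their mature sequences follow, from RefSeq on GRCm38.p6. Capitals mark the seed, bases 2 to 8.
mmu-miR-770-5p (with Meg3): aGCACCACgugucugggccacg
mmu-miR-770-3p (with Meg3): cGUGGGCCugacguggagcugg
mmu-miR-1906 (with Meg3): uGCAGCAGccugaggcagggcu
mmu-miR-134-5p (with Mirg): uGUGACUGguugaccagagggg
mmu-miR-134-3p (with Mirg): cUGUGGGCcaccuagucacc
mmu-miR-485-3p (with Mirg): aGUCAUACacggcucuccucuc
No seed was shared between any of the 25 mature miRNAs matched to the members' probe sets. The miR-1906 sequence has copies on chromosomes 12 and X, so the probe set named for Meg3 and both copies may read RNA from outside the domain. Sequences of the snoRNAs were not used here.

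All levels are log2 values made by the authors with RMA, and a difference of 1 is 2-fold. The 4 arrays had medians between 4.54 and 4.55. A probe set was counted when its highest value reached 4.84, the median of all values of probe sets with 1 gene, and 13 of the 19 passed. The knocked-out gene could not check the labels: Prdm14 was at 5.53 with sea urchin PRDM14 and CBFA2T, 5.77 with sea urchin PRDM14, 5.57 with mouse PRDM14 and 5.71 with the empty vector. No source used here places its probes relative to the deletion, and each group named below is the array labelled with it. Of 10 stem cell markers, 9 were measured, and all 9 were past the filter on every array. Of 21 measured fibroblast markers 14 were past it, with mean log2 levels over the 21 of 5.30 with CBFA2T, 5.33 with sea urchin PRDM14, 5.35 with mouse PRDM14 and 5.35 with the empty vector. Dcn, Lum, Postn, Lox, Twist2, S100a4 and Fap stayed below it on all arrays. In bulk RNA, fewer cells of a type and less RNA per cell cannot be told apart.

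Rian and the snoRNAs AF357355 and AF357425 carried the largest differences of the domain. Rian was at 4.51 with sea urchin PRDM14 and CBFA2T, 5.15 with sea urchin PRDM14 alone, 4.56 with mouse PRDM14 and 5.56 with the empty vector. The CBFA2T and mouse arrays were low and close together, the empty vector array was high, and sea urchin PRDM14 alone lay between. The differences from the empty vector were -1.06 with CBFA2T, -0.42 with sea urchin PRDM14 and -1.01 with mouse PRDM14. Both low values lie below the filter value, and Rian passed the filter through the other 2 arrays alone. Of 10 primitive endoderm markers 6 were past the filter. Of the 6, 5 were below the empty vector with mouse PRDM14 (median -0.14), 5 with sea urchin PRDM14 alone (median -0.03) and 4 with CBFA2T (median -0.06). Their mean log2 level over the 10 was 5.19 with CBFA2T, 5.19 with sea urchin PRDM14, 5.09 with mouse PRDM14 and 5.19 with the empty vector, and Gata6, Sox7, Pdgfra and Cubn stayed below the filter on all arrays. Dab2, picked after its values were seen, was lowest on the same 2 arrays as Rian. It was at 4.67 with mouse PRDM14 and 4.70 with CBFA2T, both below the filter value. Its differences from the empty vector there were -0.36 and -0.34. Lamb1 and Sox17 went the other way with CBFA2T, by 0.24 and 0.02. The part of these markers in the Rian difference was not tested.

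A different Rian probe set, shared with the snoRNA DQ267100, had the same order of arrays. It was at 4.66 with CBFA2T, 5.01 with sea urchin PRDM14, 4.70 with mouse PRDM14 and 5.15 with the empty vector. Here too both low values lie below the filter value, and the probe set passed through the other arrays alone. Its differences from the empty vector were smaller, at -0.49, -0.14 and -0.45, and none reached 2-fold. What share of them comes from Rian or from the snoRNA cannot be told apart.

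AF357355 had the widest spread of all 19 probe sets, 2.57 between its lowest and highest array. Its log2 values were 5.72 with CBFA2T, 7.55 with sea urchin PRDM14, 4.98 with mouse PRDM14 and 6.95 with the empty vector. The mouse array was lowest and the array with sea urchin PRDM14 alone highest, with the empty vector below it. AF357355 was 3.90-fold lower with mouse PRDM14 than with the empty vector and 3.55-fold lower with CBFA2T than with sea urchin PRDM14 alone. Among 13418 annotated probe sets past the filter, it had the lowest difference in both of these comparisons. Between sea urchin PRDM14 and mouse PRDM14 it was 5.93-fold higher with the sea urchin protein, the highest difference of all. The members were chosen with results of these arrays known, so these ranks and those of AF357425 below are a description.

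AF357425 followed the same order of arrays with smaller steps. It was at 6.06 with CBFA2T, 6.90 with sea urchin PRDM14, 5.73 with mouse PRDM14 and 6.64 with the empty vector. Its difference was -0.91 for mouse PRDM14 against the empty vector, rank 5 from the lowest of all, and -0.84 for CBFA2T against sea urchin PRDM14 alone, rank 9. Between sea urchin PRDM14 and mouse PRDM14 it differed by 1.17, second only to AF357355. Unlike Rian, both snoRNAs were brighter with sea urchin PRDM14 alone than with the empty vector, AF357355 by 0.60 and AF357425 by 0.26. In that comparison 41 of 57 snoRNA probe sets outside the domain were above 0 as well, with a median of 0.18.

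**Figure D1:**
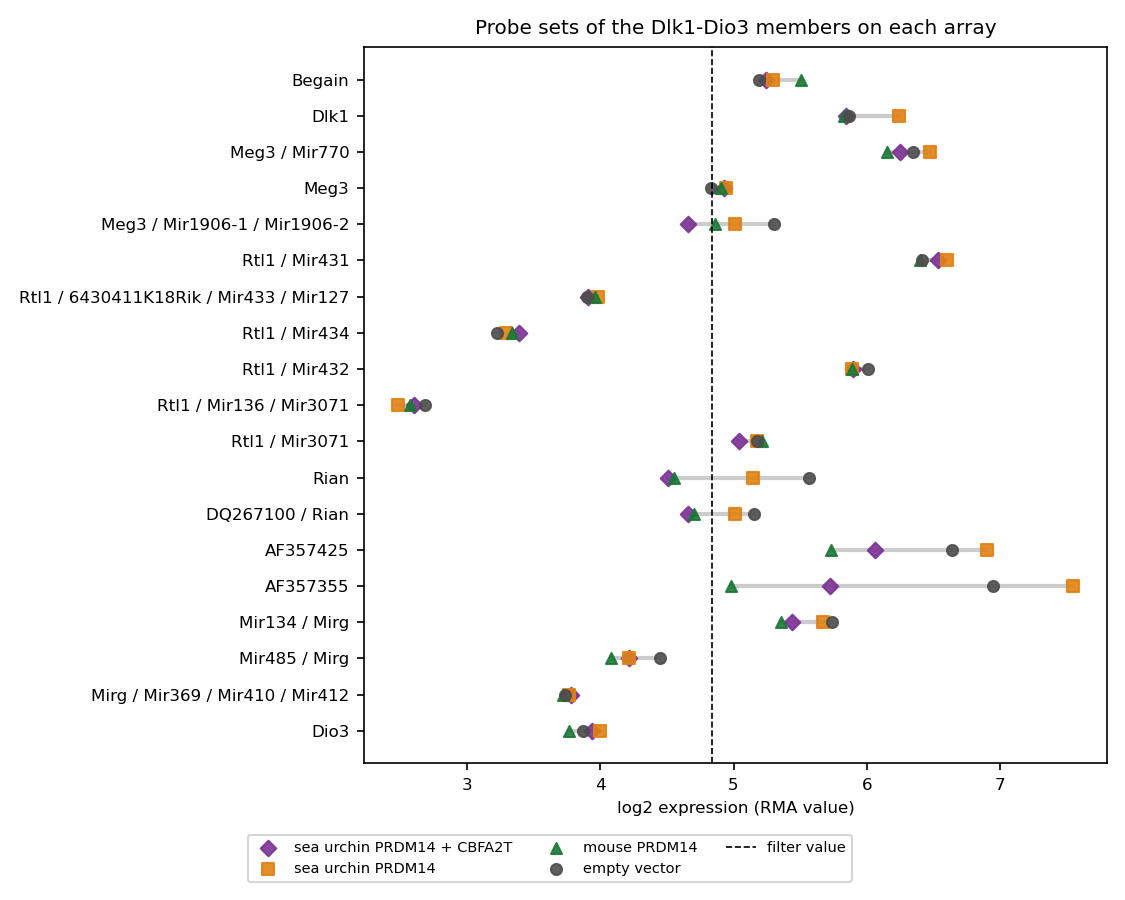
Log2 expression (RMA value, horizontal axis) of every probe set of the 9 genes on each of the 4 arrays, in gene order from Begain to Dio3. Symbols stand for arrays, the grey bar spans lowest to highest, and the dashed line is the filter value of 4.84. The bars of Rian, AF357425 and AF357355 are the longest, and on each the CBFA2T and mouse arrays lie below the other 2.

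Meg3, the first of the maternal noncoding RNA genes, did not show 1 pattern over its probe sets. The probe set annotated to Meg3 alone was at 4.93 with CBFA2T, 4.94 with sea urchin PRDM14, 4.91 with mouse PRDM14 and 4.83 with the empty vector, a spread of 0.11. The brightest, shared with Mir770, was at 6.25, 6.48, 6.15 and 6.35 in that order of arrays. There the mouse and CBFA2T arrays were again the lowest, with differences from the empty vector of -0.20 and -0.10. The probe set shared with both Mir1906 copies was at 4.66, 5.01, 4.86 and 5.30, and its difference with CBFA2T against the empty vector was -0.65. Its value with CBFA2T lies below the filter value, as does that of the probe set of Meg3 alone with the empty vector. No source used here states the exons or strand that the Meg3 probe sets read, and the 3 are not averaged.

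Mirg was read only together with miRNAs. The probe set of Mirg and Mir134 was at 5.44 with CBFA2T, 5.67 with sea urchin PRDM14, 5.36 with mouse PRDM14 and 5.74 with the empty vector, again lowest on the mouse and CBFA2T arrays. The difference was -0.38 for mouse PRDM14 and -0.30 for CBFA2T against the empty vector. The Mirg and Mir485 probe set lay below the filter, at 4.22, 4.22, 4.08 and 4.44. The one of Mirg, Mir369, Mir410 and Mir412 was dim as well, with a spread of 0.06 over the arrays.

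The protein-coding genes of the domain did not share an order of arrays. Dlk1, which encodes a transmembrane protein related to Notch ligands, was at 5.84 with CBFA2T, 6.24 with sea urchin PRDM14, 5.83 with mouse PRDM14 and 5.87 with the empty vector. From lowest to highest its arrays ranked as those of AF357355 and AF357425 did. Only sea urchin PRDM14 alone stood apart for Dlk1, 0.37 above the empty vector. Begain, which encodes a partner of a synaptic scaffold protein, was highest with mouse PRDM14, at 5.25, 5.30, 5.50 and 5.19, arrays listed as for Dlk1. Dio3, the deiodinase that inactivates thyroid hormone, was below the filter on all arrays, lowest with mouse PRDM14 (3.77) and with a spread of 0.23. The 6 probe sets of Rtl1, a gene derived from a retrotransposon, are all shared with miRNA genes, which RefSeq places on the plus strand except Mir3071, on the minus strand. Their spread over the arrays ran from 0.09 to 0.20, and 3 of the 6 were below the filter.

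Counted at 2-fold over the 13 probe sets past the filter, 2 (AF357355 and Rian) were lower with mouse PRDM14 than with the empty vector, where 0.0224% of all 13418 were. With CBFA2T against the empty vector the same 2 were lower, where 0.0447% of all were. With CBFA2T against sea urchin PRDM14 alone 1 (AF357355) was lower, where 0.0447% of all were. These contrasts chose the members, so nothing is read from these counts. With sea urchin PRDM14 alone against the empty vector, 0 were lower and 0 higher, where 0.00745% and 0.0373% of all were. Against mouse PRDM14, 2 (AF357355 and AF357425) were higher with sea urchin PRDM14, where 0.0447% of all were, and 0 with CBFA2T, where 0.328% were.

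At 1.5-fold AF357425 joined the lower ones for mouse PRDM14 against the empty vector, which made 3 where 0.157% of all were. With CBFA2T there were 3 against the empty vector (0.298% of all), the added one being the probe set of Meg3 and Mir1906. Against sea urchin PRDM14 alone there were 3 with CBFA2T (0.186% of all), Rian, AF357425 and AF357355. AF357355 was the only one higher with sea urchin PRDM14 than with the empty vector (0.373% of all). The number higher than with mouse PRDM14 was 3 for sea urchin PRDM14 (0.313% of all) and 1 for CBFA2T (0.79% of all).

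The median difference of the 13 was -0.20 with mouse PRDM14 against the empty vector, where that of all probe sets was -0.005. It was -0.24 with CBFA2T against sea urchin PRDM14 alone, where that of all was -0.001. In those 2 comparisons 10 and 12 of the 13 were below 0. Sea urchin PRDM14 alone minus the empty vector gave a median of 0.11, and CBFA2T minus the empty vector -0.14, where those of all were both 0.006. Over all 19 probe sets, dim ones included, the medians were -0.11 for mouse PRDM14, 0.07 for sea urchin PRDM14 and -0.10 for CBFA2T, each minus the empty vector, and -0.07 for CBFA2T minus sea urchin PRDM14 alone. Since the filter and the choice of genes favour probe sets that differ, these medians are a description. The comparisons with the empty vector share its array and are given side by side only.

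**Figure D2:**
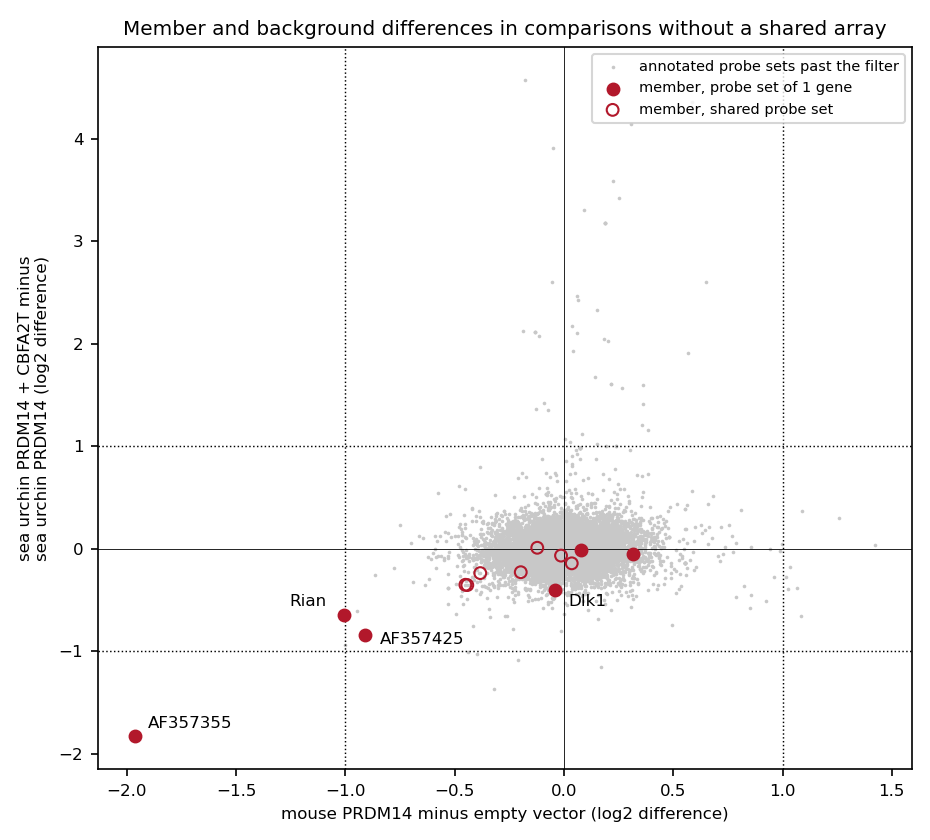
Log2 difference of mouse PRDM14 minus empty vector (horizontal) against sea urchin PRDM14 with CBFA2T minus sea urchin PRDM14 alone (vertical), 1 array each. Grey points are annotated probe sets past the filter, filled red points members on a probe set of 1 gene, open red points members on shared probe sets, and dotted lines mark 2-fold. AF357355 lies alone at the lower left at -1.96 and -1.83, with Rian and AF357425 next.

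The other genes of the interval, where read on probe sets without a member's symbol, differed less between arrays. Between Begain and Dio3 the RefSeq annotation of GRCm38.p6 orders 97 further genes. Of these, 48 had such probe sets, 53 in all, and 18 of the 53 were past the filter. Genes read only on a probe set shared with a member, such as DQ267100 and Mir134, are not among the 48. None of the 18 was 2-fold apart in any comparison. Their median difference was 0.03 with mouse PRDM14 and 0.01 with CBFA2T against the empty vector, and 0.09 with CBFA2T against sea urchin PRDM14 alone. The largest difference from the empty vector was 0.62, for Mir540 with sea urchin PRDM14. As flanking genes, the nearest with a probe set of their own past the filter were taken, 10 beyond Begain and 10 beyond Dio3. Of these 20, 0 were 2-fold apart, with medians of -0.04 with mouse PRDM14 and -0.01 with CBFA2T against the empty vector.

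Within the annotated extent of Rian, the probe sets did not move as 1 block. The genes named here were picked by their place inside Rian, after their values were seen. DQ267102, a snoRNA, was at 6.13 with CBFA2T, 6.41 with sea urchin PRDM14, 5.99 with mouse PRDM14 and 6.42 with the empty vector, lowest on the same 2 arrays as Rian. DQ267101 was not on its brighter probe set, at 5.02, 4.94, 4.92 and 4.77. Its dimmer probe set was below the filter, at 3.28, 3.44, 3.33 and 3.41, and was lowest on the same 2 arrays as Rian. AF357426 was below the filter too, and differed by -0.28 with mouse PRDM14 and -0.39 with CBFA2T from the empty vector. The miRNA genes inside Rian gave differences near 0 where they were past the filter: with mouse PRDM14 against the empty vector, Mir341 differed by 0.04 and Mir1188 by 0.03.

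**Figure D3:**
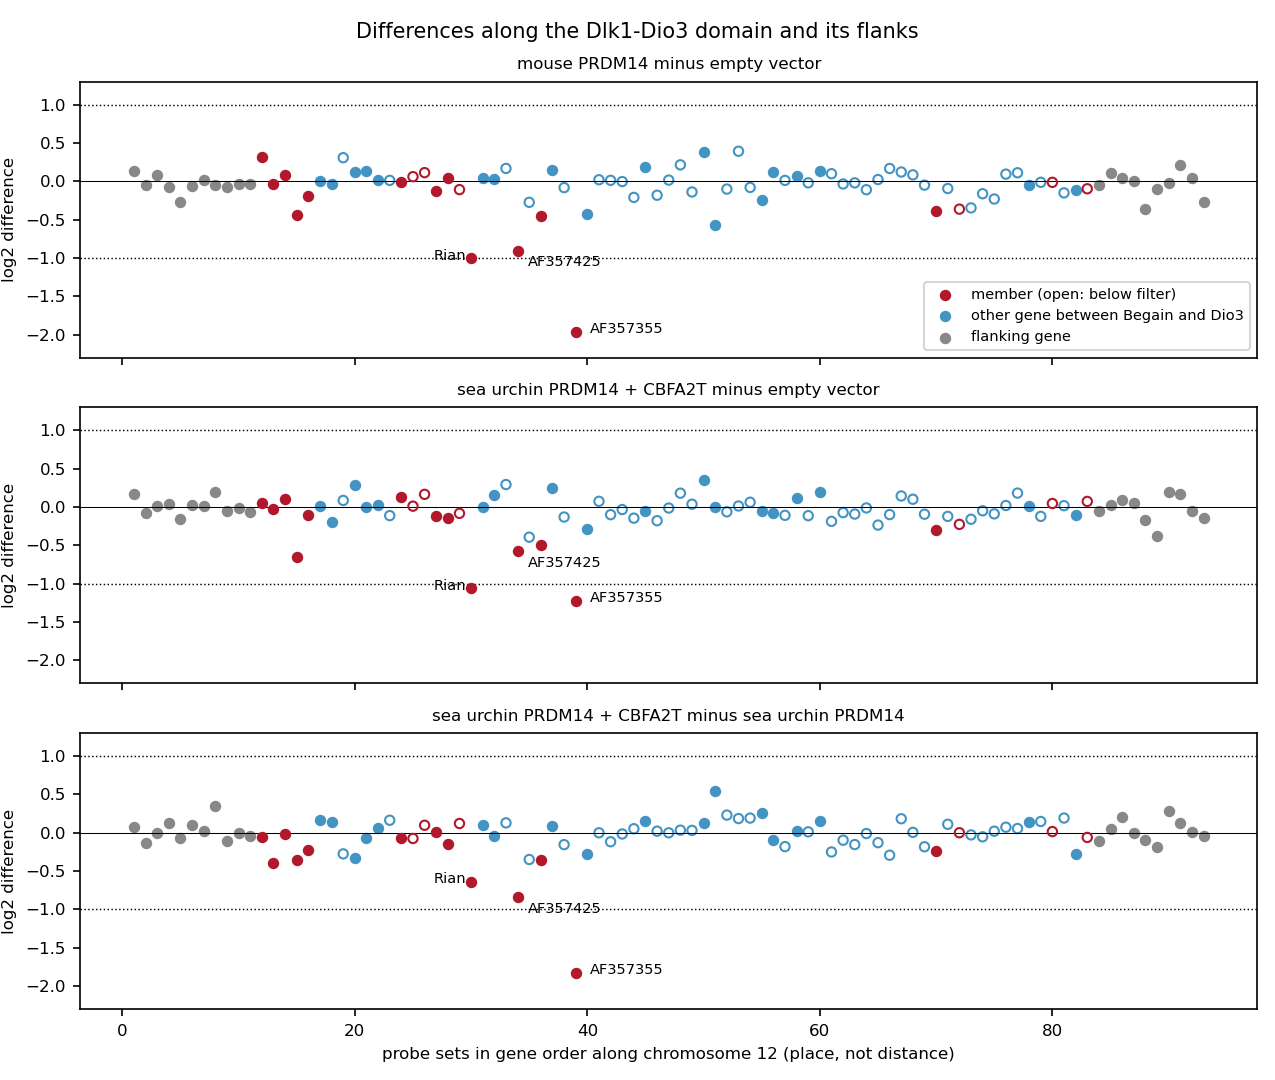
Log2 differences (vertical) of probe sets in gene order along chromosome 12 (horizontal, place and not distance) for mouse PRDM14 minus empty vector, CBFA2T with sea urchin PRDM14 minus empty vector, and the same minus sea urchin PRDM14 alone. Red points are members, blue the other genes between Begain and Dio3, grey the flanking genes, open points are below the filter, and dotted lines mark 2-fold. The low points cluster at Rian, AF357425 and AF357355, and the 21 probe sets of the 20 flanking genes stay between -0.38 and 0.35.

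Other snoRNAs set the scale for AF357355 and AF357425. Outside the domain, 57 snoRNA probe sets were past the filter, and their median difference from the empty vector was 0.30 with mouse PRDM14, 0.18 with sea urchin PRDM14 and 0.12 with CBFA2T. With mouse PRDM14, 48 of the 57 were above 0. Their spread was wide, with an SD across probe sets of 0.37 for mouse PRDM14 against 0.16 over all probe sets, and 3 of the 61 snoRNA probe sets were 2-fold higher. AF357355 and AF357425 ran the other way with mouse PRDM14, the lowest and second lowest of the 61, and DQ267102 (-0.42) was the fourth lowest. The lowest of the 57, at -0.53, lay between AF357425 and DQ267102. With CBFA2T against sea urchin PRDM14 alone the 57 had a median of -0.08 and a lowest value of -0.66. There AF357355 (-1.83) and AF357425 (-0.84) lay below all of them. With CBFA2T against the empty vector AF357355 (-1.23) was the lowest of the 61. AF357425 (-0.58) was only rank 4 from the lowest in that comparison, and the 57 reached down to -0.68. The part of the array-wide snoRNA shift in these differences was not tested.

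**Figure D4:**
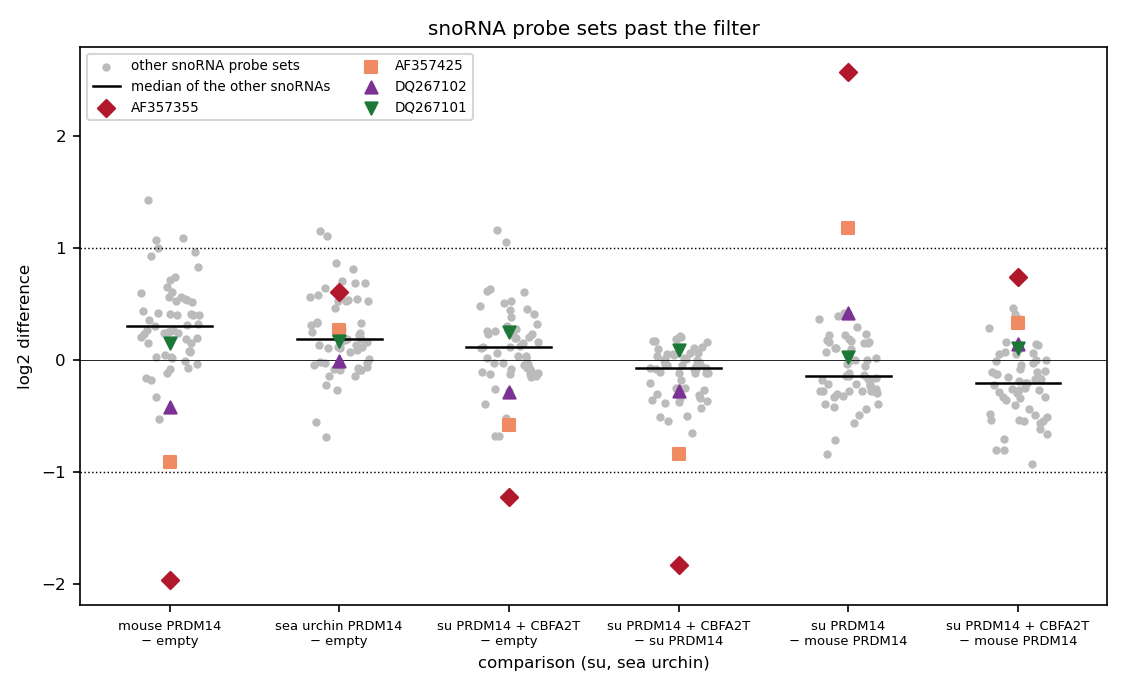
Log2 differences (vertical) of the 61 snoRNA probe sets past the filter in 6 comparisons (horizontal, su for sea urchin). Grey points are the 57 outside the domain with their median as a black bar, coloured symbols are the snoRNAs of Rian, and dotted lines mark 2-fold. AF357355 is the lowest point for mouse PRDM14 minus empty vector (-1.96), CBFA2T minus empty vector (-1.23) and CBFA2T minus sea urchin PRDM14 (-1.83), and the highest in both comparisons with mouse PRDM14 subtracted.

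Genes with the most similar profile were found by the Euclidean distance between log2 values centred on each gene's own mean over the 4 arrays. For Rian the 5 nearest of 12042 genes past the filter were Gm5218 (distance 0.32), Clybl (0.34), Gja1 (0.35), Snord118 (0.36) and Dsg2 (0.37), none of them on chromosome 12. For AF357355 they were AF357425 (1.09), Gja1 (1.12), Olfr1039 (1.16), Rabggtb (1.35) and Rian (1.41). For Meg3, by its own nearly flat probe set, they were Ctso, Crybb1, Tom1, Sphk2 and Ankrd6, at 0.008 to 0.014. Profiles over 4 arrays are short, and nothing is read from them about function.

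Genes of factors that write or guard imprints had median RNA differences near 0. Of 28 listed regulators 26 were past the filter, and their median difference was -0.02 with mouse PRDM14, 0.001 with sea urchin PRDM14 and -0.004 with CBFA2T against the empty vector, with all genes at -0.005, 0.006 and 0.005. Suz12, a subunit of Polycomb repressive complex 2, was the only one past 2-fold, higher by 1.01 with CBFA2T than with the empty vector, and higher than with mouse PRDM14 by 1.09 with sea urchin PRDM14 and by 1.33 with CBFA2T. Its order of arrays differed from that of Rian, with 7.19 with CBFA2T, 6.96 with sea urchin PRDM14, 5.87 with mouse PRDM14 and 6.19 with the empty vector. Of 45 listed imprinted genes outside the domain 39 had a probe set of their own, and H19 did not. The 22 past the filter gave 0 past 2-fold. Their median differences from the empty vector were -0.04 (mouse PRDM14) and -0.03 (sea urchin PRDM14). The largest difference there was -0.86, in the zinc finger gene Plagl1 with sea urchin PRDM14.

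Genes of the proteins that build or mature the small RNAs of the domain gave no 2-fold difference in RNA where they were past the filter. Of 12 listed C/D box snoRNP and assembly genes 11 had a probe set of their own (all but Fbl) and 10 were past the filter. Their medians were 0.04 with mouse PRDM14 and 0.04 with CBFA2T against the empty vector. The largest difference from it, 0.29, was that of Nolc1 with sea urchin PRDM14. Of 14 listed miRNA processing genes 13 had a probe set of their own (all but Dgcr8) and 8 were past the filter. Among these Ddx5, an RNA helicase of the nuclear processing step, differed by 0.76 with CBFA2T from the empty vector.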

How the data were processed

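Total RNA was labelled with biotin for 4 arrays, 1 per group, per the labels' protocols. The deposited log2 values came from RMA according to the submitters' processing notes. That method corrects background, equalises the arrays' distributions and summarises probes, so a shift shared by most genes would not show. No source used here gives its version, a genome build or which arrays were normalized as 1 set.

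The table held 41345 probe sets: the platform annotation gave 1 gene to 23521, several to 1814 and none to 16010. Of the 23521, 23328 had an Entrez identifier in the RefSeq gene table of GRCm38.p6, used for names, gene order and class. Start windows and mature miRNAs, with their coordinates, came from RefSeq sequence tables of the same build. Differences between arrays were called at 2-fold over 13418 annotated probe sets past the filter. Gene lists used the probe set with the highest mean per gene (12042 genes past the filter). The code that makes the calls was run on simulated data with planted differences past the 2-fold threshold. That run checks the code and not the calls made on these arrays. With 1 array per group no test between groups was made.

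The members and lists were chosen with earlier results of these data known. Named were all members, list members past 2-fold or else the one farthest from the empty vector, and the 5 nearest profiles for Rian, AF357355 and Meg3. The alternatives tried were a threshold of 1.5-fold, no filter, a filter at 5.65 (the 75th percentile), cyclic loess, and 1 value per gene by the brightest probe set or the mean. Loess ran in limma 3.58.1 under R 4.3.3, and all else in Python 3.11.15 with pandas 2.3.3, numpy 2.4.6 and matplotlib 3.10.9.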

Additional observations from a re-analysis of the deposited data

How the results depend on the processing

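No paired analysis was possible because each group has 1 array and the result comes from no test. The number of member probe sets past 2-fold stayed within 1.5 times its reported value in 31 of 36 recounts. With the stricter filter it was 1 for mouse PRDM14 and 1 for CBFA2T with sea urchin PRDM14, both against the empty vector, because Rian was then left out as too dim. With a 1.5-fold threshold it was 1 when sea urchin PRDM14 was set against the empty vector, 3 for CBFA2T against sea urchin PRDM14 alone, and 1 for CBFA2T against mouse PRDM14. After cyclic loess the largest move of a member's difference was 0.022, no difference past 2-fold changed sign or side, and 1 near 0 changed sign (CBFA2T against mouse PRDM14). Rian lay close to the threshold, at -1.01 and -1.06. Each of the 132 recomputed list medians moved by less than the SD of all probe sets' differences. Those SDs were 0.16 to 0.23, a loose bound for medians near 0, and a median can change sign within it. That of the thyroid hormone genes with mouse PRDM14 against the empty vector went from 0.05 to -0.09 without the filter. Leaving out an array was not run, since it removes a group. Both Rian probe sets lie below the filter value on 2 arrays, those with CBFA2T and mouse PRDM14. So do the Meg3 and Mir1906 probe set with CBFA2T and the probe set of Meg3 alone with the empty vector. On all arrays 3 Rtl1 probe sets, 2 of the 3 Mirg probe sets, Dio3 and 32 of 47 miRNA probe sets of the other interval genes do. No depth or detection call comes with these values.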

Other observations

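Genes of the pathways that Dlk1 and Dio3 belong to were counted as well. Of 20 listed Notch pathway genes 13 were past the filter and 0 were 2-fold apart, with medians of 0.08 with mouse PRDM14, 0.01 with sea urchin PRDM14 and 0.03 with CBFA2T against the empty vector. The largest difference there was -0.27, in Rbpj, the DNA-binding partner of Notch, with mouse PRDM14. Of 12 listed thyroid hormone genes 4 were past the filter and 0 were 2-fold apart, with medians of 0.05 with mouse PRDM14, 0.12 with sea urchin PRDM14 and 0.08 with CBFA2T. Over all 9 that were measured the medians were -0.09, 0.04 and -0.07, so the sign turned for mouse PRDM14 and CBFA2T. Med1, a Mediator subunit that binds nuclear receptors, differed by -0.34 with mouse PRDM14.

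Markers of other cell types did not pass 2-fold in any comparison. Among stem cell markers the largest difference from the empty vector was -0.42, in Tfcp2l1 with sea urchin PRDM14. Among fibroblast markers it was -0.49, in Fn1 with CBFA2T. Among primitive endoderm markers it was 0.38, in Lamb1 with sea urchin PRDM14, where the other 5 past the filter were below 0 (median of the 6, -0.03). Of the trophoblast markers 6 were past it, with Eomes at -0.26 with sea urchin PRDM14. Their part in the Rian and snoRNA differences was not tested.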
